A study of Mus musculus with 6 samples.

Results

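Phosphoinositide 3-kinase writes a lipid signal on the plasma membrane, and the 8 genes described here read, relay or erase it. They were found by gene symbol among the 56980 genes of the deposited table, 1 row each: the AKT kinases Akt1 and Akt2, their activator Pdpk1, and the opposing phosphatases Phlpp1, Phlpp2, Inpp4a, Inpp4b and Inppl1. All 8 passed the filter on low counts, which left 17735 genes for testing. RNA came from whole ovaries of ICR mice, an outbred strain, in 3 FNZ libraries (replicates 2, 3 and 5) and 3 control libraries (replicates 2, 3 and 4). FNZ animals received 30 mg/kg into the peritoneum each day for 7 days, in polyethylene glycol 400 and saline, and controls received the solvent. FNZ is given in the labels by these letters only, the study's title speaks of blocking T-type calcium channels and of lower PI3K/AKT activity, and neither the age of the mice nor the number of mice behind the ovaries is given.

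AKT is a serine/threonine kinase that binds the lipid PIP3 at the membrane. There PDK1 phosphorylates its activation loop and mTOR complex 2 its hydrophobic motif, and PHLPP phosphatases remove the phosphate of the hydrophobic motif. SHIP2 turns PIP3 into PI(3,4)P2, which also binds AKT, and the INPP4 enzymes remove PI(3,4)P2. In the ovary this pathway sets the dormancy and activation of primordial follicles and carries survival signals in granulosa cells. Transcript levels, which were measured here, do not report phosphorylation.

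The expected counts summed to between 19333493 and 22587113 in FNZ libraries and between 22027408 and 23406628 in control libraries. Short genes had higher fold changes than long ones (Spearman's rho between log2 fold change and length = -0.42 across 17735 genes, which are not independent replicates). FNZ replicate 3 stood apart: its deviations from the mean of all libraries correlated with gene length at rho = 0.08, against -0.46 and -0.30 in the other FNZ libraries and 0.26 to 0.32 in controls. Every FNZ library thus lay below every control in this rho. A technical trend and an effect of treatment that varies with length cannot be told apart here. Removing the trend, also called the correction for length below, would take out both. Granulosa, theca, stromal and oocyte markers were detected in every library. For each of the 11 marker lists, the summed TPM (transcript levels scaled for gene length and library size) of the FNZ and control libraries overlapped. Of 7 macrophage markers, 3 were lower in TPM in every FNZ library than in every control, as were 25.4% of all tested genes. Of 7 theca and luteal markers, 1 was lower and 2 were higher in this way. So were 1 of 8 granulosa markers, higher, and 1 of 7 stroma and smooth muscle markers, lower. The share of all tested genes higher in this way was counted in CPM only (15.8%), so nothing is read from the markers higher in TPM. FNZ replicate 3 also held the most lymphocyte and neutrophil markers (107 TPM, against 9.41 to 33.2 TPM elsewhere) and the most theca and luteal markers (5070 TPM, against 3090 to 3570 TPM elsewhere). Oviduct markers reached 379 TPM in control replicate 4, against 2.58 to 18.6 TPM in the other libraries. In whole ovaries, fewer cells of a type and less RNA per cell cannot be told apart.

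All 8 genes had a negative log2 fold change, as did 48.8% of all tested genes, but none passed edgeR's quasi-likelihood test at a Benjamini-Hochberg adjusted p under 0.05 (0% of all tested genes did). At an unadjusted p under 0.05, edgeR had 3 of the 8 lower, Phlpp2, Pdpk1 and Akt1, against 11.2% of all tested genes lower and 23.2% in either direction. In these 3, every FNZ library lay below every control library in CPM (counts scaled to library size, not to length), as in 13.8% of all tested genes. DESeq2 called Phlpp2 and Pdpk1 lower (5.57% of its genes), limma voom called 0 of the 8, and edgeR without FNZ replicate 3 called Phlpp2, Pdpk1 and Akt1 lower (9.64% of its genes). With the trend over gene length removed, 4 of the 8 had a negative log2 fold change (45.9% of all tested genes), and Phlpp2 and Pdpk1 had all FNZ libraries below all controls (8.73%). edgeR then called 0 of the 8 (0.0113% of all tested genes), also without FNZ replicate 3 (1.77% of genes called lower). The labels do not say that the ovaries came from separate mice, and p-values therefore measure only the spread between these libraries.

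**Figure D1:**
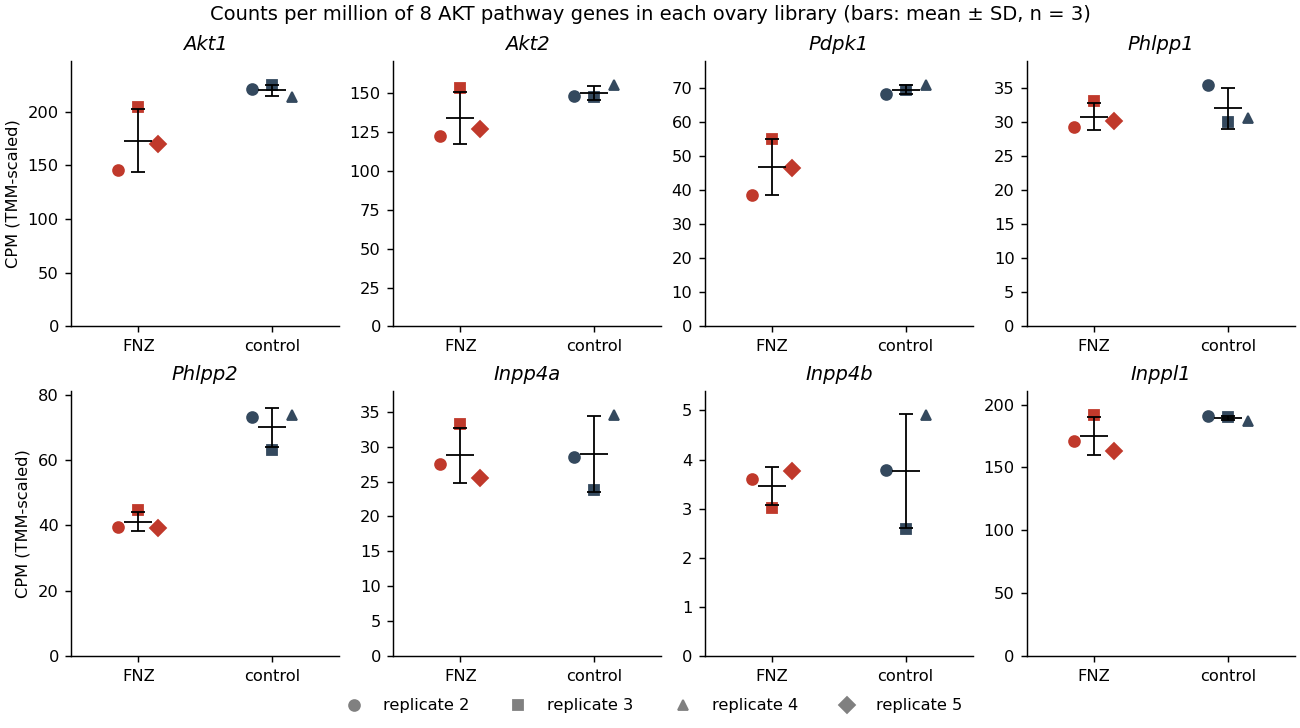
CPM (vertical axes, from 0) of each gene in 3 FNZ and 3 control libraries; symbols mark the replicate number and bars the mean ± SD. Akt1, Pdpk1 and Phlpp2 have no overlap between groups, and FNZ replicate 3 is the highest FNZ library in 7 of 8 panels, all but Inpp4b.

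Akt1 encodes the most widely expressed AKT kinase. It measured 146, 204 and 170 CPM in FNZ replicates 2, 3 and 5, against 221, 225 and 214 CPM in control replicates 2, 3 and 4. The controls lay close together (219.7 ± 5.53 CPM, SD, n = 3), whereas the FNZ libraries were spread (173 ± 29.4 CPM, n = 3), with FNZ replicate 3 within 10 CPM of the lowest control. The log2 fold change was -0.34 ± 0.13 (SE), with a 95% interval from -0.65 to -0.03 and an edgeR adjusted p of 0.185. It was -0.48 without FNZ replicate 3 (edgeR adjusted p = 0.021) and -0.22 without FNZ replicate 2 (edgeR adjusted p = 0.412). In its length decile the median log2 fold change was 0.05, and with the length trend removed the value for Akt1 was -0.33 ± 0.14 (edgeR adjusted p = 0.291).

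Akt2, the isoform best known from insulin-regulated glucose uptake, measured 122, 153 and 127 CPM in FNZ and 148, 147 and 155 CPM in control ovaries. FNZ replicate 3 lay within the control range and the other FNZ libraries below it. The log2 fold change was -0.16 ± 0.11 (edgeR adjusted p = 0.405) and its 95% interval ran from -0.42 to 0.09. The log2 fold change was -0.09 without FNZ replicate 2 (edgeR adjusted p = 0.733) and -0.27 without FNZ replicate 3 (edgeR adjusted p = 0.059).

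Pdpk1 encodes PDK1, which also activates S6, SGK and protein kinase C family members. In FNZ ovaries it measured 38.8, 55.0 and 46.7 CPM, against 68.4, 69.7 and 70.9 CPM in control ovaries. The FNZ values were spread (SD 8.12 CPM, n = 3) and the controls close together (SD 1.28 CPM, n = 3), with no overlap. The log2 fold change was -0.57 ± 0.13, a change of -32.7%, with a 95% interval from -0.88 to -0.26 (edgeR adjusted p = 0.131). The authors' deposited table gives -0.59 with an adjusted p of 0.012, and it marks the gene as not significant, as it does every gene with an absolute log2 fold change under 1. In that table Pdpk1 and Phlpp2 are the 2 of the 8 genes with an adjusted p under 0.05, and 2.53% of genes with a count are lower at that level. Of the 14799 genes that DESeq2 tested here, 5.57% were lower at that level. Pdpk1 is long (7161 bases), and its length decile had a median log2 fold change of -0.28. With the length trend removed its log2 fold change was -0.31 ± 0.10, every FNZ library still lay below every control library, and neither edgeR (adjusted p = 0.22) nor DESeq2 (adjusted p = 0.133) called it.

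Among the phosphatases Phlpp2 had the lowest log2 fold change and the smallest edgeR p of the 8 genes, at rank 10 by p among all 17735. PHLPP2 and its paralog PHLPP1 are leucine-rich repeat phosphatases that act on the AKT hydrophobic motif. Phlpp2 measured 39.7, 44.7 and 39.3 CPM in FNZ ovaries, against 73.1, 63.1 and 73.9 CPM in control ovaries. The groups lay far apart, and the spread within each was small (SD 3.01 CPM with FNZ and 6.02 CPM in controls, n = 3 each). The log2 fold change was -0.76 ± 0.11, a change of -41.1%, with a 95% interval from -1.01 to -0.52 (edgeR adjusted p = 0.131). The authors' deposited table gives a log2 fold change of -0.78 and an adjusted p of 1.5e-05, and again marks the gene as not significant. Macrophage markers summed to 128, 131 and 99.2 TPM in FNZ replicates 2, 3 and 5. In control replicates 2, 3 and 4 they summed to 241, 117 and 227 TPM. For these markers, as for Phlpp2, FNZ replicate 3 was the highest FNZ library and control replicate 3 the lowest control. Control replicate 3 lay below FNZ replicates 2 and 3 in these markers and above both in Phlpp2. Any part of macrophages in the Phlpp2 values was not tested.

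Phlpp1 measured 29.3, 33.1 and 30.2 CPM in FNZ ovaries and 35.5, 30.1 and 30.6 CPM in control ovaries, so the groups overlapped. Its log2 fold change was -0.05 ± 0.11 (edgeR adjusted p = 0.804), and the 95% interval from -0.32 to 0.21 does not include the estimate for Phlpp2. Both genes belong to the longest length decile of tested genes (6226 bases for Phlpp1 and 7846 for Phlpp2), whose median log2 fold change was -0.28. Negative values were held by 82.1% of genes in that decile, which Pdpk1 shares, against 72.1% in that of Inppl1, 65.3% in that of Inpp4b, 51.6% in that of Akt2 and Inpp4a, and 44.5% in that of Akt1. With the length trend removed, Phlpp2 had a log2 fold change of -0.48 ± 0.10 and Phlpp1 one of 0.18 ± 0.12, the sign of Phlpp1 being reversed. On that scale Phlpp2 measured 5.58, 5.45 and 5.50 (log2 CPM) in FNZ and 6.09, 5.89 and 5.97 in control ovaries, without overlap. DESeq2 called Phlpp2 after this correction (adjusted p = 0.00875, with 1.48% of its genes called lower), and edgeR did not (adjusted p = 0.188).

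**Figure D2:**
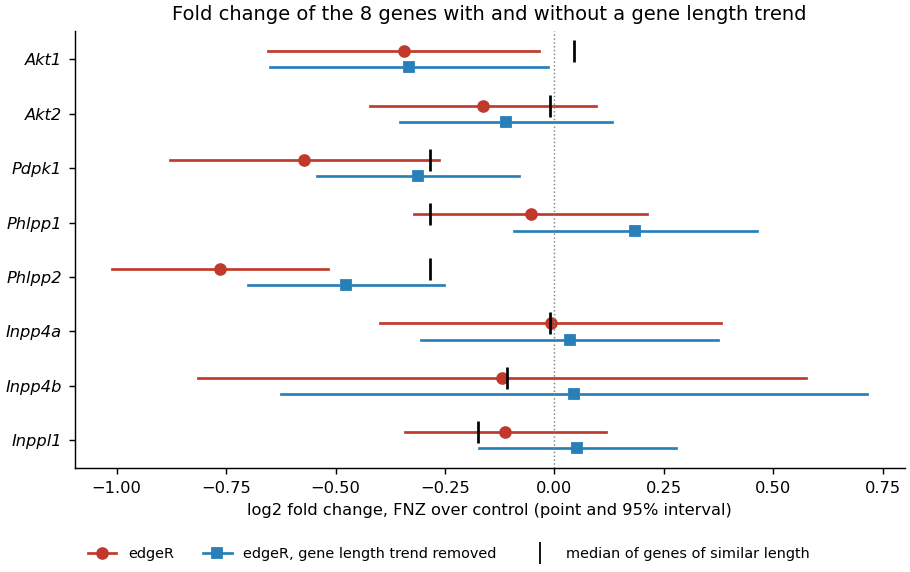
Log2 fold change of each gene (horizontal axis, FNZ over control) with its 95% interval, from edgeR (circles) and from edgeR with the gene length trend removed (squares); black ticks mark the median of genes in the same length decile. Phlpp2 is lowest in both fits, at -0.76 and -0.48, and Phlpp1 moves to 0.18 when the trend is removed.

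RefSeq promoter windows (250 bases before to 50 after a start, build GRCm38.p6) were found for all 8 genes, 5 of which have more than 1 annotated start. Those of the PHLPP pair are shown because the paralogs differed in fold change, those of Pdpk1 (its second start) and Akt1 (its first start, which holds the FOXO letters) because these genes also had groups without overlap. Capitals mark matches on either strand to GTAAACA (FOXO), TGACGTCA (CREB), CACGTG (E-box), CCGGAAG (ETS), GGGCGG (SP1) and CCAAT (NF-Y); overlapping SP1 matches run together.
Phlpp2 (chr8:109868353-109868652, plus strand): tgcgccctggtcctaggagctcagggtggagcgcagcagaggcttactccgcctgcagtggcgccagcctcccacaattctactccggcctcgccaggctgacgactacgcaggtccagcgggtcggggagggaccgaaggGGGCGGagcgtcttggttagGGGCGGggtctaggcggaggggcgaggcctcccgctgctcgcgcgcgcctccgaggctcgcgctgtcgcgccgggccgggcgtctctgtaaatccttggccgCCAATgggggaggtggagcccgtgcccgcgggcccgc
Phlpp1 (chr1:106171619-106171918, plus strand): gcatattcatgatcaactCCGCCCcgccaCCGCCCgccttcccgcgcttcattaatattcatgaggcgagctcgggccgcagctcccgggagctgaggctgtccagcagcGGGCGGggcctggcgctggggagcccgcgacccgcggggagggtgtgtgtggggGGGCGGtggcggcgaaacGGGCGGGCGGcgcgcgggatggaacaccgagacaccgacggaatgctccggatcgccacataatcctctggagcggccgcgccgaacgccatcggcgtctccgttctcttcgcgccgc
Pdpk1 (chr17:24141545-24141844, minus strand): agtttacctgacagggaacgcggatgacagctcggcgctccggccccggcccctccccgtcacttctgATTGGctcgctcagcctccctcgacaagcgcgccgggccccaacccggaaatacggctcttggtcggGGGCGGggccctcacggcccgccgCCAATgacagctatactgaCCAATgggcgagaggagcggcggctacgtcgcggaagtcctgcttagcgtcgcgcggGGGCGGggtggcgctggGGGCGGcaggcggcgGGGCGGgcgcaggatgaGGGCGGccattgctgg
Akt1 (chr12:112674835-112675134, minus strand): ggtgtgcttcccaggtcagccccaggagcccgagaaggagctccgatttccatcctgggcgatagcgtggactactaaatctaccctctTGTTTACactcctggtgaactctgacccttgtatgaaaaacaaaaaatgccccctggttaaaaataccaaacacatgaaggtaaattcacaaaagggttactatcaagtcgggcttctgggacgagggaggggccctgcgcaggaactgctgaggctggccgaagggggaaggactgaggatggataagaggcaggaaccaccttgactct
Both PHLPP windows were GC-rich (72.7% for Phlpp2 and 70.7% for Phlpp1) and held SP1 letters, 2 matches in Phlpp2 and 6 in Phlpp1, as did 35.7% of all 32851 windows. The Phlpp2 window also held 1 NF-Y match and the Pdpk1 window 3, a motif found in 37.4% of all windows, and the Phlpp1 window held 0. The first Akt1 window was picked for its FOXO letters, which 3.65% of all windows hold, so nothing is read from that match. The second Akt1 window held 0 FOXO and 5 SP1 matches at 79.7% GC, and the first Akt1 window 0 SP1 matches at 52.3% GC. The second Pdpk1 window held 5 SP1 matches at 71.7% GC, and the first held 0 matches to any of the motifs. FOXO factors are themselves AKT substrates. The 4 windows held 0 matches to CREB, E-box or ETS letters, which 1.79%, 7.15% and 8.86% of all windows hold. These matches describe the letters and show no binding.

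The inositol phosphatases had log2 fold changes nearer 0 than Phlpp2. Inppl1 encodes SHIP2, and it measured 171, 192 and 163 CPM in FNZ and 191, 190 and 187 CPM in control ovaries. The groups overlapped through FNZ replicate 3, the highest of all 6 libraries. Its log2 fold change was -0.11 ± 0.10 (edgeR adjusted p = 0.522) with a 95% interval from -0.34 to 0.12, and 0.05 with the length trend removed. On the opposite strand 1299 exon bases of Inppl1 are shared with Phox2a and Gm10602 (GENCODE M21, GRCm38), and no source used here says whether reads were counted by strand. None of the other 7 genes shares exon bases with another gene on either strand.

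Inpp4a and Inpp4b encode the 4-phosphatases that remove PI(3,4)P2, and Inpp4b is known as a tumour suppressor in epithelia. Inpp4a measured 27.6, 33.2 and 25.5 CPM in FNZ and 28.6, 23.8 and 34.6 CPM in control ovaries. Both groups spanned nearly the same range, and the log2 fold change was -0.01 ± 0.17 (edgeR adjusted p = 0.981; 95% interval from -0.40 to 0.38), turning to 0.03 with upper quartile scaling or the length trend removed. The libraries highest in Inpp4a, control replicate 4 and FNZ replicate 3, were also highest in adipocyte markers (866 and 721 TPM, against 56.1 to 400 TPM in the rest). Any part of fat tissue in that order was not tested.

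Inpp4b had the lowest level of the 8 genes. It rested on 69, 68 and 72 reads in FNZ and on 89, 59 and 110 reads in control libraries, or 3.61, 3.02 and 3.76 CPM against 3.79, 2.59 and 4.91 CPM. The controls spanned the whole FNZ range. The log2 fold change of -0.12 ± 0.30 (edgeR adjusted p = 0.838) had a 95% interval from -0.81 to 0.58, the widest of the 8 genes. Its TPM did not follow its counts: control replicate 4 had 1.63 TPM from 110 reads, and control replicate 2 had 0.74 TPM from 89 reads. Reads per TPM, relative to gene length and to the library's median gene, ranged from 1.43 to 2.14 for Inpp4b in FNZ and from 1.11 to 2.00 in control libraries. For Inpp4a the same measure was 1.97 to 2.12 with FNZ and 1.79 to 1.88 in controls, without overlap. For Akt1 it was 1.07 with FNZ and 1.02 to 1.06 in controls, also without overlap. For Phlpp2 it was 1.13 to 1.17 with FNZ and 1.14 to 1.16 in controls. The share of all genes without overlap in this measure was not computed, so nothing is read from these separations. The measure depends on the transcript length that the authors' program used in each library, and no source used here names that program.

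Levels of different genes were compared in TPM. In FNZ ovaries Akt1 averaged 88.6 ± 24.9 TPM, Inppl1 63.8 ± 9.61, Akt2 58.9 ± 13.8, Pdpk1 8.47 ± 2.28, Inpp4a 7.06 ± 1.98, Phlpp2 6.74 ± 1.27, Phlpp1 6.28 ± 1.06 and Inpp4b 0.643 ± 0.102 (SD, n = 3). In control ovaries Akt1 averaged 136 ± 2.93 TPM, Inppl1 79.0 ± 1.85, Akt2 78.8 ± 2.78, Pdpk1 14.8 ± 0.679, Phlpp2 13.5 ± 1.4, Inpp4a 9.37 ± 2.09, Phlpp1 7.84 ± 0.566 and Inpp4b 1.09 ± 0.472 (SD, n = 3). The order was the same in both groups except that Phlpp2 stood above Inpp4a in controls and just below it with FNZ. Neighbours whose ranges overlapped in controls were Inppl1 with Akt2, Pdpk1 with Phlpp2, and Inpp4a with Phlpp1. With FNZ, the ranges of neighbours overlapped from Akt1 to Akt2 and again from Pdpk1 to Phlpp1. Akt1, Akt2 and Inppl1 thus formed an upper tier in every library and Inpp4b lay at the bottom.

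TPM gave lower values with FNZ than CPM did, for all genes and for these. On the log2(TPM + 1) scale, which understates changes of low genes, the median log2 fold change of all tested genes was -0.18, against 0.01 on the CPM scale. In TPM 5 of the 8 genes (Akt1, Akt2, Pdpk1, Phlpp2 and Inppl1) had every FNZ library below every control library, as did 25.4% of all tested genes. Summed over the 8 genes, FNZ replicates 2, 3 and 5 held 196, 301 and 224.5 TPM, against 339, 335 and 346 TPM in control replicates 2, 3 and 4. On the log2(TPM + 1) scale limma called 0 of the 8 genes and 1 of all tested genes, with log2 fold changes of -0.91 for Phlpp2, -0.76 for Pdpk1 and -0.64 for Akt1 (limma adjusted p = 0.136 each).

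**Figure D3:**
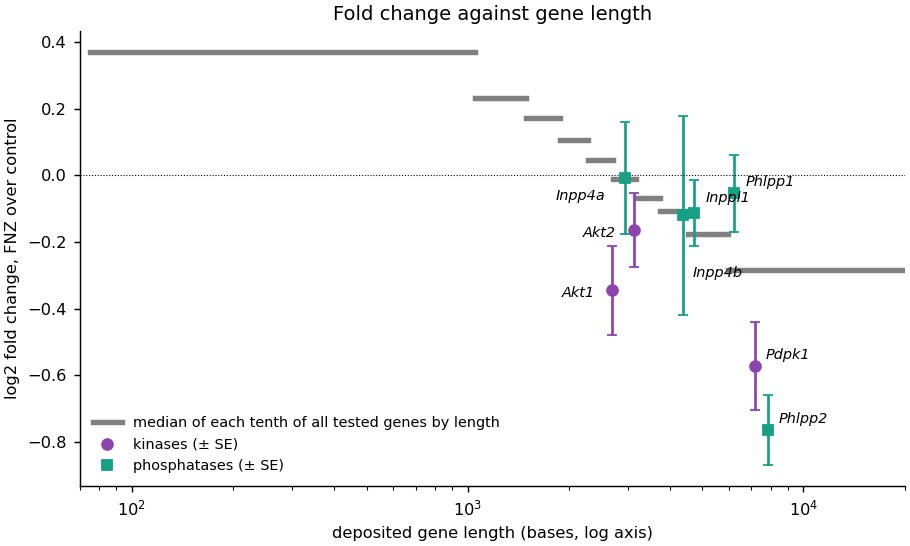
Log2 fold change (vertical axis, FNZ over control, ± SE) against deposited gene length in bases (log axis) for the 3 kinase genes (circles) and 5 phosphatase genes (squares); grey bars give the median of each length decile of the 17735 tested genes. The shortest decile has a median of 0.37 and the longest one of -0.28, and Akt1, Akt2, Pdpk1, Phlpp2 and, narrowly, Inpp4b (-0.12 against -0.11) lie below the bar of their own length.

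Ratios within a library set related genes against each other. Phlpp1 to Phlpp2 was 0.916, 0.911 and 0.977 in FNZ replicates 2, 3 and 5, against 0.611, 0.638 and 0.511 in control replicates 2, 3 and 4. The paralogs were thus near parity with FNZ, and Phlpp2 was the more abundant in every control. The difference in log2 ratio was 0.68 (two-sided exact permutation p = 0.1, adjusted over 4 ratios p = 0.2), higher in 3 of 3 FNZ libraries, where 0.1 is the smallest p that 3 against 3 libraries allow. It was 0.66 with the length trend removed and 0.58 to 0.74 with any 1 library left out.

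Akt1 to Akt2 was 1.41, 1.56 and 1.51 in FNZ ovaries and 1.81, 1.74 and 1.62 in control ovaries. Akt1 exceeded Akt2 in every library, by less with FNZ, with a difference in log2 ratio of -0.21 (two-sided exact permutation p = 0.1, adjusted p = 0.2). Inpp4a to Inpp4b ranged from 7.70 to 15.6 with FNZ and from 7.09 to 12.4 in controls, and the groups overlapped (exact permutation p = 0.6, adjusted p = 0.6). The summed kinases to the summed phosphatases were at 1.58, 1.99 and 1.91 in FNZ and 2.09, 2.15 and 1.98 in control ovaries. That difference, -0.19 in log2 ratio, rested largely on FNZ replicate 2 and was not past the threshold (exact permutation p = 0.2, adjusted p = 0.267). It was -0.09 without that library and -0.11 in CPM (unadjusted exact permutation p = 0.3 and 0.4). It was -0.25 without FNZ replicate 3 and -0.23 in CPM with the length trend removed (unadjusted exact permutation p = 0.1 each). Inppl1 held most of the phosphatase sum in every library.

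**Figure D4:**
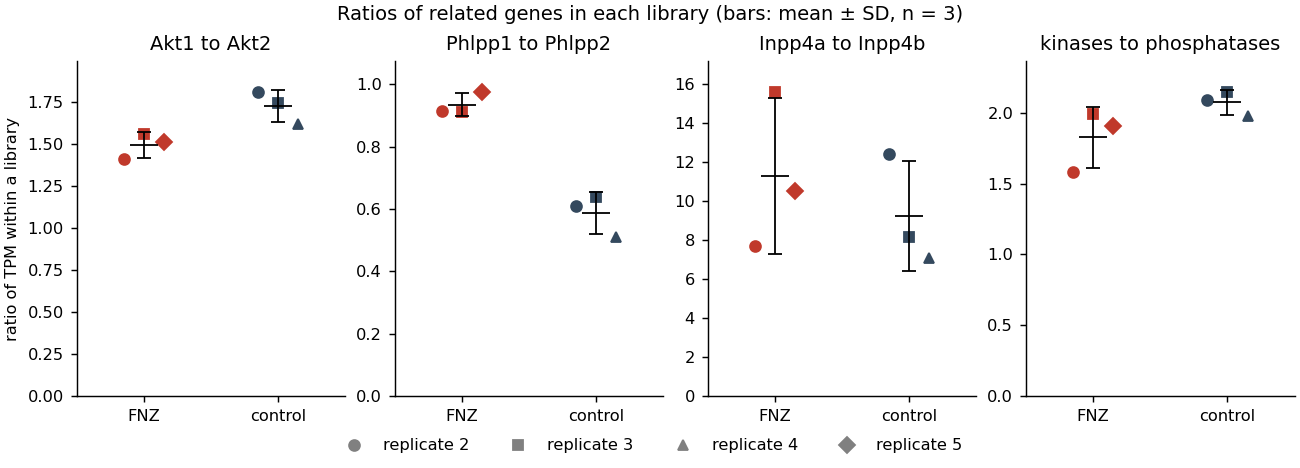
Ratio of TPM within each library (vertical axes, from 0) for 3 paralog pairs and for summed kinases to summed phosphatases, in FNZ and control ovaries; symbols mark the replicate number and bars the mean ± SD, n = 3. Phlpp1 to Phlpp2 lies at 0.911 to 0.977 with FNZ and at 0.511 to 0.638 in controls.

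Many genes had nearly the same profile over the 6 libraries. Of 10414 other genes with at least 10 CPM on average, 878 correlated with Akt1 at a Pearson r above 0.95, 780 with Pdpk1, 349 with Akt2, 125 with Phlpp2 and 92 with Inppl1, against 22, 7 and 4 for Inpp4a, Phlpp1 and Inpp4b. The libraries differed in depth and in their length trend, and the genes below were picked for their r, so no test is given. The most alike were Atp7a for Akt1 (r = 0.9992), AU040320 for Akt2 (0.9985), Camsap2 for Pdpk1 (0.9994) and Ncoa3 for Phlpp2 (0.9962). Eogt was most alike for Inppl1 (r = 0.9963), Plpp3 for Inpp4a (0.995), Matn2 for Phlpp1 (0.9853) and Cpz for Inpp4b (0.9802), with a Spearman's rho of 0.943 or 1 in each of these 8 pairs. Ncoa3, a coactivator of nuclear receptors, measured 46.8 ± 2.88 CPM in FNZ and 68.7 ± 2.99 CPM in control ovaries, and Camsap2, which binds microtubule minus ends, 56.0 ± 12.6 and 92.9 ± 2.89 CPM (SD, n = 3 each). Both are long, at 7531 and 7823 bases.

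The rest of the pathway was described with 8 lists of 117 genes, 116 of them tested. Of these, 31 had a positive and 85 a negative log2 fold change, with a median of -0.15 against 0.01 over all tested genes. The lists hold longer genes (median 3619 bases against 2705), and with the length trend removed their median was -0.01 against 0.03. edgeR called 0 of them. At an unadjusted p under 0.05, edgeR had 22 lower, against 11.2% of all tested genes, and 6 higher, against 12%. DESeq2 called 3 lower and 1 higher (5.57% and 4.54% of its genes), and edgeR without FNZ replicate 3 called 22 lower and 3 higher (9.64% and 7.99% of its genes). With the length trend removed, DESeq2 called 0 lower and 4 higher (1.48% and 2.47% of its genes). In CPM, every FNZ library lay below every control in 27 of the 116 genes and above every control in 10. The shares over all tested genes, not matched for length, were 13.8% and 15.8%. These counts, lower then higher, were 1 and 1 for 15 other phosphoinositide phosphatases and 1 and 0 for 9 mTOR complex 2 genes. They were 3 and 1 for 11 PP2A subunits, 4 and 3 for 14 AKT-binding proteins, and 2 and 0 for 18 FOXO-controlled genes.

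In these lists, counts are of the sign of the log2 fold change, and most single genes passed no test. Upstream, 11 of 13 PI3K subunit genes had a negative sign. Every FNZ library lay below every control in 5 of the 13 (13.8% of all tested genes) and above every control in 1 (15.8%). The median log2 fold change was -0.28, or -0.05 with the length trend removed. Pik3r5, a regulatory subunit of leukocytes, measured 1.93 ± 0.156 CPM in FNZ and 3.90 ± 1.21 CPM in control ovaries (log2 fold change -1.01 ± 0.32, edgeR adjusted p = 0.144), in libraries whose macrophage markers are given above. Pik3ca, the widely expressed catalytic subunit, measured 71.4 ± 7.79 and 87.7 ± 6.39 CPM, a log2 difference of -0.30 ± 0.11 (adjusted p = 0.177 by edgeR). After the correction for length Pik3r5 was at -0.86 and Pik3ca at -0.05. Of the other phosphoinositide phosphatases 9 of 15 had a negative sign (median -0.05, turning to 0.03 with the length trend removed). They included Synj1, synaptojanin, at -0.48 ± 0.16 and Inpp5d, the leukocyte paralog of Inppl1, at -0.61 ± 0.24 (edgeR adjusted p = 0.153 and 0.183), or -0.22 and -0.44 with the length trend removed.

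Of 9 genes of mTOR complex 2, 8 had a negative sign (median -0.23, or -0.06 with the length trend removed). Mtor, its kinase, measured 64.2 ± 10.2 CPM in FNZ and 85.7 ± 3.25 CPM in control ovaries (log2 fold change -0.42 ± 0.12, edgeR adjusted p = 0.138), and Deptor, an inhibitor, was at -0.35 ± 0.18 (adjusted p = 0.279 by edgeR). After the correction for length Mtor was at -0.13 and Deptor at -0.05. PP2A, which removes the phosphate of the AKT activation loop, had 9 of 11 subunit genes with a negative sign (median -0.08, or -0.06 with the length trend removed). Its subunit Ppp2r5b had the opposite sign, at 66.9, 47.3 and 62.6 CPM in FNZ and 35.1, 34.9 and 33.0 CPM in control ovaries. All FNZ libraries exceeded all controls, by 0.78 ± 0.14 on the log2 scale (adjusted p = 0.131 by edgeR). DESeq2 called Ppp2r5b higher without and with the length correction (adjusted p = 0.0012 and 0.000867). Ppp2r1b, a scaffold subunit that shares 1429 exon bases with Sik2 on the opposite strand, was at -0.24 ± 0.09 on the log2 scale (adjusted p = 0.173 by edgeR), or -0.28 after the correction.

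Of 14 genes for proteins that bind AKT, 9 had a negative sign (median -0.10, turning to 0.08 with the length trend removed). Appl2, an adaptor that binds AKT, measured 168 ± 17.6 CPM in FNZ and 131 ± 11.5 CPM in control ovaries (log2 fold change 0.37 ± 0.12, edgeR adjusted p = 0.145), and DESeq2 called it higher after the correction for length (adjusted p = 0.0421). Trib1, a pseudokinase, was at -0.50 ± 0.23 on the log2 scale (adjusted p = 0.243 by edgeR), or -0.35 after the correction. Of 16 genes for other kinases activated by PDK1, 14 had a negative sign (median -0.21, or -0.07 with the length trend removed). Every FNZ library lay below every control in 3 of the 16 (13.8% of all tested genes) and above every control in 2 (15.8%). Rps6kb2, an S6 kinase, stood on the higher side at 25.5 ± 3.20 CPM in FNZ and 19 ± 0.69 CPM in control ovaries (log2 fold change 0.43 ± 0.13, edgeR adjusted p = 0.139; with the length trend removed 0.60, DESeq2 adjusted p = 0.0329). Its exons share 1224 bases with genes on the opposite strand. Rps6ka1, a ribosomal S6 kinase of the RSK family, was at -0.34 ± 0.11 on the log2 scale (adjusted p = 0.146 by edgeR), or -0.37 after the correction, and shares 247 exon bases with an opposite gene.

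Downstream, 15 of 20 AKT substrates had a negative sign (median -0.12, or -0.01 with the length trend removed). Every FNZ library lay below every control in 8 of the 20 (13.8% of all tested genes) and above every control in 2 (15.8%). Tbc1d1, which restrains glucose transporter traffic, measured 34.6, 55.3 and 37.5 CPM in FNZ and 64.8, 65.1 and 74.0 CPM in control ovaries. No FNZ library reached a control (log2 fold change -0.68 ± 0.18, edgeR adjusted p = 0.133), and DESeq2 called it (adjusted p = 0.0171) but not after the correction for length (adjusted p = 0.0696). Foxo3, the transcription factor that keeps primordial follicles dormant, measured 102, 102 and 103 CPM in FNZ and 118, 132 and 122 CPM in control ovaries. That narrow but separated difference (log2 fold change -0.28 ± 0.09, edgeR adjusted p = 0.143) was -0.01 with the length trend removed. Genes transcribed under FOXO factors were split, 10 with a negative and 8 with a positive sign (median -0.07, turning to 0.05 with the length trend removed). Bcl2l11, which encodes the pro-apoptotic BIM, and Fbxo32, a ubiquitin ligase of muscle wasting with 186 exon bases opposite Gm15943, were at -0.42 ± 0.11 and -0.52 ± 0.15 on the log2 scale (adjusted p = 0.133 and 0.135 by edgeR). DESeq2 called both lower (adjusted p = 0.0376 and 0.0362) and neither with the length trend removed (log2 fold changes -0.24 and -0.26, adjusted p = 0.291 and 0.313). Btg1, chosen after its values were seen because DESeq2 then called it, was at 0.61 with the trend removed (DESeq2 adjusted p = 0.0349). Before that its log2 fold change was 0.41 (edgeR adjusted p = 0.197), and its FNZ and control libraries overlapped in CPM. Without FNZ replicate 3, edgeR called 9 of the 16 genes named by rule from the lists (adjusted p 0.00898 to 0.0367). Ppp2r5b, Rps6kb2 and Appl2 were higher, and Tbc1d1, Mtor, Synj1, Fbxo32, Bcl2l11 and Pik3ca lower. The 16 were named for their small p in these same data, so nothing is read from that count. Of all 116 tested list genes that fit called 22 lower and 3 higher (9.64% and 7.99% of its genes).

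**Figure D5:**
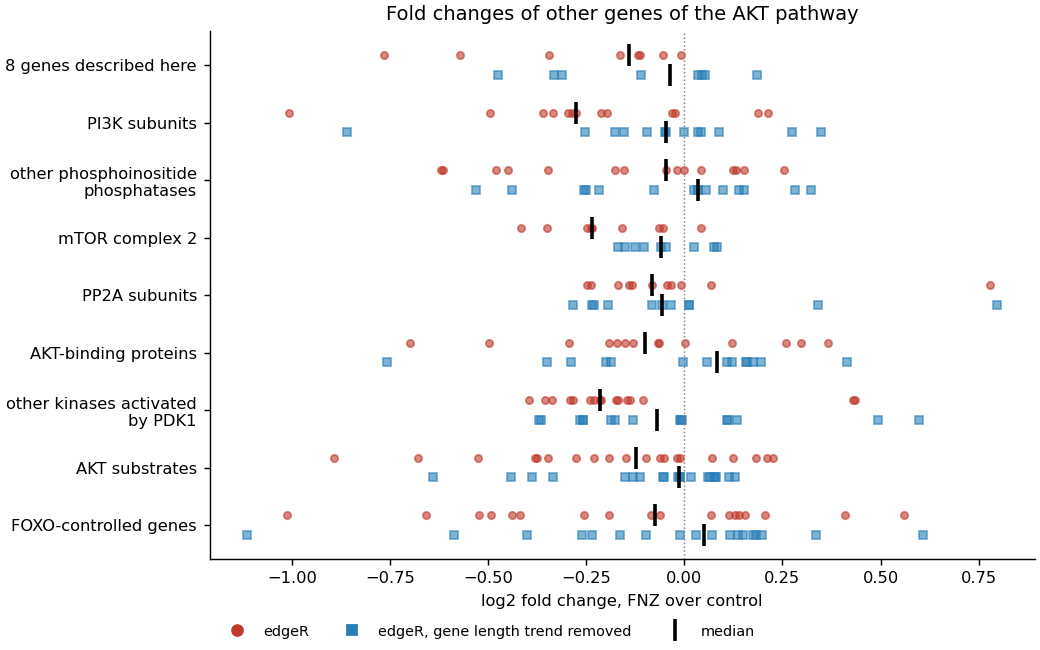
Log2 fold change of single genes (horizontal axis, FNZ over control) in the 8 genes described here and in 8 lists of other pathway genes, from edgeR (circles) and with the gene length trend removed (squares); black ticks mark medians. The PI3K list's median is -0.28 without and -0.05 with the trend removed, and Ppp2r5b is the rightmost gene, at 0.78 and 0.80.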

How the data were processed

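Poly(A) RNA was sequenced with paired-end reads, per the labels. Base calls used bcl2fastq 2.20, the build was GRCm39 and the authors' test DESeq2 1.38.3, per the submitters' processing notes; no source used here names the aligner, counting program, annotation or strand setting. The authors deposited expected counts (27.1% to 31.8% of values above 0 are not whole), TPM, and, per gene, their fold ratio with its log2, a raw p-value and its adjusted form.

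Expected counts were rounded, and edgeR 4.0.16 under R 4.3.3 gave the tests (TMM scaling, filterByExpr, glmQLFit with robust = TRUE, two-sided quasi-likelihood F test, Benjamini-Hochberg over all tested genes), where the plan had named counts. The SE is the log2 fold change divided by the root of F. Code was tested on simulated data. The length trend is a loess fit (span 0.3) of each library's log2 CPM deviation (prior count 2) on log2 length, used as an offset. Alternatives used RLE and upper quartile scaling, other filters, DESeq2 1.42.0, limma 3.58.1, blocks and left-out libraries. Members and lists were chosen with earlier results of these data known. Genes are named by rule: the 8 genes, the 2 smallest edgeR p of each list at 1 CPM or more, and the gene most alike each of the 8. Replicate libraries differed by far more than sampling noise.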

Additional observations from a re-analysis of the deposited data

How the results depend on the processing

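The number of genes called decides most statements. edgeR called 0 of 17735 genes, and 1497 were called by DESeq2, 2 by limma voom, 183 without a filter, 2 with the length trend removed, 591 by DESeq2 with that trend removed, 615 with the trend removed and FNZ replicate 3 left out, and 1 by limma on log2(TPM + 1). Leaving out 1 library gave 0 to 3230 genes, the last without FNZ replicate 3, and 1 without control replicate 3 or FNZ replicate 5. DESeq2 without FNZ replicate 3, chosen after seeing the data, called 4519. Of the 8 genes edgeR called 0, against 2 by DESeq2, 1 without a filter (Phlpp2, 0.26% of genes called lower there), 1 by DESeq2 with the length trend removed, 0 to 3 with 1 library left out, and 5 by DESeq2 without FNZ replicate 3 (16.1% of its genes called lower). The cause was not tested.

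Over 20 alternatives the log2 fold change stayed negative for Phlpp2 (-0.91 to -0.45), Pdpk1 (-0.76 to -0.31), Akt1 (-0.64 to -0.22) and Akt2 (-0.44 to -0.09). It reversed for Phlpp1 with the length trend removed (0.18; 0.18 by DESeq2; 0.20 also without FNZ replicate 3) and without control replicate 2 (-0.11 to 0.023 over the left-out libraries). Inppl1 reversed in the same 3 length settings (0.052, 0.052 and 0.029). Inpp4b did so there too (0.045, 0.043 and 0.17), by the title block (0.075) and without control replicate 4 (-0.33 to 0.12 over the left-out libraries). Inpp4a reversed with upper quartile scaling (0.034), limma voom (0.0064), the length trend removed (0.035; 0.035 by DESeq2), the title block (0.22), and without FNZ replicate 2 or 5 or control replicate 4 (-0.13 to 0.13 over the left-out libraries). The log2 ratio of Inpp4a to Inpp4b reversed with the length trend removed (-0.035), and the other 3 ratios kept their sign in all 9 alternatives.

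Libraries that share a number were no more alike than other pairs, whose deviations correlated at -0.21 to 0.37. With 3 libraries per group this cannot show whether the ovaries were paired or handled in batches. Deviations of FNZ and control libraries with the same replicate number correlated at -0.08 (replicates 2) and -0.14 (replicates 3). FNZ replicate 5 and control replicate 4, matched by library number only, correlated at -0.32. A replicate block by library number called 2 genes, and one by title number, which compares replicates 2 and 3 alone, called 27; 0 of the 8 genes were among them (edgeR adjusted p for Phlpp2 0.219 and 0.348).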
